A study of Homo sapiens with 2 samples.

Results

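Accessible chromatin at the loci of 7 genes with roles in cell cycle entry and in mantle cell lymphoma, CCND1, CCND2, CCND3, CDK4, MYC, SOX11 and BMI1, was described in 2 ATAC-seq libraries of the line Z-138. ATAC-seq uses a transposase to insert sequencing adapters into open DNA, and a region where reads pile up is called a peak, or here a region. The line derives from a human mantle cell lymphoma, a cancer of mature B cells. One library came from cells with an shRNA knockdown of SMARCA4 and the other from cells with a control shRNA, and the cells of both were cultured with doxycycline. SMARCA4 is an ATPase of the SWI/SNF complexes, which move nucleosomes, and the series' design sets its knockdown beside the response to ibrutinib plus venetoclax. The labels name neither drug for these libraries, and they do not say whether the cells were a clone or a pool. Members were all regions that overlapped fixed hg19 spans on chromosome 11 from 69.00 to 69.55 Mb (CCND1 with the breakpoint region upstream of it), chromosome 12 from 4.36 to 4.44 Mb (CCND2), chromosome 6 from 41.88 to 42.04 Mb (CCND3), chromosome 12 from 58.12 to 58.17 Mb (CDK4), chromosome 8 from 128.70 to 128.80 Mb (MYC), chromosome 2 from 5.80 to 5.87 Mb (SOX11) and chromosome 10 from 22.59 to 22.64 Mb (BMI1). The spans held 74 of the 96664 regions in the lists, of which 36 of 41540 were from the knockdown and 38 of 55124 from the control library. With 1 library per group there is no replicate error and no test between the groups. Intervals below cover counting error in these libraries, and whether any difference is larger than the spread between cultures cannot be judged.

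D-type cyclins bind and activate the kinase CDK4 and its relative CDK6, which phosphorylate the retinoblastoma protein and let cells enter S phase. In mantle cell lymphoma a translocation places CCND1 under the enhancers of the immunoglobulin heavy chain locus, with breakpoints in a region upstream of the gene. CCND2 and CCND3 are the cyclins that normal B cells use, and both can be rearranged in mantle cell lymphomas that lack CCND1 expression. MYC is a transcription factor of growth and proliferation that binds, with its partner MAX, the E-box CACGTG. SOX11 is a transcription factor of neural development that most mantle cell lymphomas express and normal B cells do not. BMI1 is a subunit of the Polycomb repressive complex that ubiquitinates histone H2A, and its locus can be amplified in this lymphoma. Reads from the translocated and the intact chromosome map to the same reference position, so the alleles cannot be told apart in peak lists.

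The E-box is shown in RefSeq promoter sequences of the kinase and the Polycomb member because it is a motif that MYC, another member, can bind. The promoter table (GRCh38.p14, windows of 300 bases around transcript starts) held 6 windows of 3 of these genes: 1 for CDK4, 2 for BMI1 and 3 for CCND3. CACGTG, which reads the same on both strands and overlaps no other motif searched, was found 3 times in the CDK4 window (minus strand, chr12:57752261-57752560) and once in 1 BMI1 window (plus strand, chr10:22320849-22321148), and in none of the other 4 windows. Of all 35116 promoter windows in the table, 2548, or 7.3%, held it. The capitals mark the E-box, and a match is a description of the letters and not evidence of binding.
CDK4: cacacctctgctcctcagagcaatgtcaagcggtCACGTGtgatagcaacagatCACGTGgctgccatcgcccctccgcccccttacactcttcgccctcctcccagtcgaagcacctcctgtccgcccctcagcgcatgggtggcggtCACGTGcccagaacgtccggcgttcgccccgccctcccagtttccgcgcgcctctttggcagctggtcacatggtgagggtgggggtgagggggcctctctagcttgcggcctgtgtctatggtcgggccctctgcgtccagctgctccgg
BMI1: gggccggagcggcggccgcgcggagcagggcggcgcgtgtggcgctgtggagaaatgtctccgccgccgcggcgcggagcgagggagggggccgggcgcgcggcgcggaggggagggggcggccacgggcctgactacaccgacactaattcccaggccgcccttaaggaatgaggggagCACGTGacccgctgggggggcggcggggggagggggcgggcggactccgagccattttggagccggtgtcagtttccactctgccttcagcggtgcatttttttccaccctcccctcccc
These sequences have positions of GRCh38, while the regions have positions of hg19. No hg19 annotation was used here, so regions are given by their coordinates in the span and not as promoter, intron or enhancer. In the order of RefSeq genes, CDK4 lies between TSPAN31 and MARCHF9, CCND2 between PARP11 and TIGAR, and CCND3 between BYSL and TAF8. BMI1 lies between COMMD3 and SPAG6. A region in a span may therefore belong to a neighbour of the named gene.

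Over the 7 loci the libraries had nearly the same number of regions. The spans held 36 knockdown regions (95% Poisson interval 25.2 to 49.8) and 38 control regions (26.9 to 52.2), so the knockdown number was 94.7% of the control number (exact conditional interval 58.4 to 153.5%). Over chromosomes 1 to 22 and X it was 75.4%, which lies inside that interval. The knockdown library was the deeper one, with 9.76 M against 6.89 M reads recovered from the caller's values, or 1.42 times as many. Summits of equal accessibility would then be 1.34 times as high in the knockdown library, since its reads were also extended slightly less. This assumes that the same share of reads fell in peaks in both libraries, which was not checked. The median unscaled summit ratio over all pairs of the genome was 1.13. A depth-scaled ratio below is knockdown over control divided by 1.34. The regions covered 8662 bp in the knockdown and 8716 bp in the control library. Of the 36 knockdown regions, 10 overlapped no control region, and 26, or 72.2% (exact binomial interval 54.8 to 85.8%), overlapped one by at least 1 bp. Of all knockdown regions, 20.6% overlapped no control region. Of the 38 control regions, 12 overlapped no knockdown region and 26, or 68.4% (51.3 to 82.5%), overlapped one. Of all control regions, 39.5% overlapped no knockdown region. Both member shares had intervals that include the share of their whole list. They also include the shares given by fold alone, which are 70.2% for knockdown and 56.6% for control regions, from the overlapped share in each decile of fold. At this number of regions no difference in overlap between the loci and the genome is read. The intervals treat regions as independent, although some lie less than 1 kb apart and shared regions enter the numbers of both lists. Pooled, the loci held 3.40 knockdown and 3.58 control regions per 100 kb, against 1.41 and 1.87 over the genome. Without CCND1 the values were 6.47 and 6.27, while at CCND1 they were 0.55 and 1.09. The spans were set around named genes, and spans around other genes were not compared, so the density is not read as a trait of these loci. Flanks of the same length on both sides of every span held 24 knockdown and 31 control regions, or 1.13 and 1.46 per 100 kb. Beyond the span edges the first knockdown region was 6.4 to 293.5 kb away and the first control region 6.3 to 207.6 kb away. The nearest, past the end of the CDK4 span, had 17 reads in the knockdown and 12 in the control library. The median summit pileup, which is the number of reads stacked at the highest point of a region, was 11.5 reads in the knockdown and 9 reads in the control members. Over all regions it was 10 in the knockdown and 8 in the control library.

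**Figure D1:**
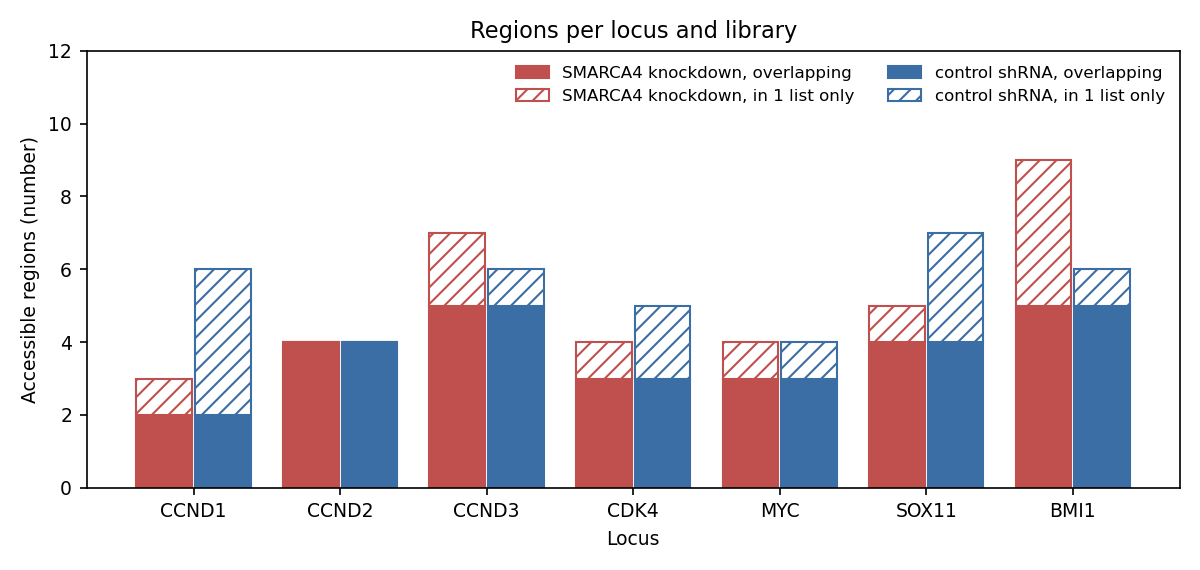
Number of accessible regions (vertical axis) in each locus span (horizontal axis) for the SMARCA4 knockdown (left bar, red) and the control shRNA library (right bar, blue). Filled parts are regions that overlap a region of the other list and hatched parts are regions in 1 list only. CCND1 had 3 knockdown and 6 control regions, CCND2 had 4 in each, and BMI1 had 9 knockdown and 6 control regions.

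CCND1, the cyclin that defines the disease, had the sparsest span of the 7 and the lowest overlapped share of control regions. Its 550 kb held 3 knockdown (interval 0.6 to 8.8) and 6 control regions (2.2 to 13.1). This is 0.55 and 1.09 per 100 kb, against genome values of 1.41 and 1.87. Both intervals include the numbers that the genome values would give in this length. Of the 6 control regions, 2 had a knockdown partner, or 33.3% with an interval of 4.3 to 77.7%. In the other 6 spans together the share was 24 of 32, or 75% (56.6 to 88.5%). The intervals overlap, and the difference between the spans was not tested. Of all control regions, 60.5% had a knockdown partner, and on chromosome 11 the share was 59.8%. Both values lie inside the CCND1 interval. The flanks of CCND1 held 10 knockdown (interval 4.8 to 18.4) and 16 control regions (9.15 to 25.98) in 1100 kb, and 8 of those 16 had a knockdown partner. With q-values of at most 1e-05 the span held 1 knockdown and 3 control regions.

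The strongest region of the CCND1 span was in the control list and had no knockdown partner. It lay on chromosome 11 from 69258107 to 69258389, with a deposited fold of 13.4, a fold percentile of 93.9 among control regions, and a summit of 18 reads. The fold is the authors' ratio of summit to expected background, each with 1 read added. The nearest knockdown region was 196.5 kb away. At the depth of the knockdown library its summit corresponds to 24.2 reads, and on that background a summit of 5 reads reaches the least significant p-value in the knockdown list. Of the 3382 control regions with at least this fold, 62, or 1.83%, had no knockdown partner. It is the one member with a fold percentile above 90 that occurred in 1 list only.

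The remaining CCND1 regions were weaker, and 2 of them were shared. At the far end of the span, the knockdown region from 69533061 to 69533152 had a summit of 5 reads and was 92 bp wide, against 11 reads and 295 bp in its control partner from 69532962 to 69533256. Their folds were 4.54 in the knockdown and 9.50 in the control. Scaled by depth, the knockdown summit was 0.34 times that of the control (log2 -1.56, counting interval -3.44 to 0.08). This was the one member pair past a 2-fold difference, and its interval includes 0. The other shared pair, from 69489944 to 69490172 in the knockdown and from 69490062 to 69490275 in the control library, had 8 reads in the knockdown and 7 in the control (log2 -0.23, -1.89 to 1.46). One knockdown region, from 69061500 to 69061632, had 5 reads and no partner, with the nearest control region 3.3 kb away. Control regions without a partner lay from 69064920 to 69065102 with 7 reads, from 69453835 to 69453983 with 6 reads and from 69500759 to 69500852 with 4 reads. At the depth of the control library that knockdown summit corresponds to 3.7 reads, under the limit of 4 there. At the depth of the knockdown library the 3 control summits correspond to 9.4, 8.1 and 5.4 reads, where summits of 5, 5 and 4 reads can be called.

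The CCND2 span was the one in which every deposited region of each list had a partner. It held 4 regions in either library within 80 kb, with 0 knockdown and 1 control region in its flanks. The interval of a share of 4 of 4 starts at 39.8%. Of all regions, 79.4% in the knockdown and 60.5% in the control list had a partner. With q-values of at most 1e-05 it held 4 knockdown and 2 control regions, so that not every region kept a partner. The last region by position was the strongest control member of all 7 loci by fold. Whether it belongs to CCND2 or to TIGAR, the next gene in RefSeq order, was not determined. On chromosome 12 the knockdown region spanned 4429928 to 4430492 and reached 32 reads (fold 14.6, percentile 95.2 of its list), against 36 reads (fold 17.2, percentile 98.7) in the control region at 4429970 to 4430628. Scaled by depth the summit ratio was 0.66 (log2 -0.59, -1.33 to 0.13). The other 3 pairs had summits of 12, 8 and 9 reads in the knockdown and 7, 6 and 9 reads in the control library, in order of position. Their log2 ratios were 0.35, -0.01 and -0.42, and each interval included 0. The third of them, starting at 4417102 in the knockdown and 4417092 in the control list, was 136 bp wide in both and had its summit at the same base.

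CCND3 had a pair of wide regions that were higher in fold and wider in the knockdown list. On chromosome 6 the knockdown region from 41909284 to 41909779 had 20 reads and a fold of 12.2, against 11 reads and a fold of 7.63 in the control region from 41909397 to 41909760. Scaled by depth the ratio was 1.36 (log2 0.44, -0.69 to 1.65). The knockdown region from 42018081 to 42018585 had 17 reads and a fold of 9.61, against 9 reads and 6.36 in the control region from 42018215 to 42018577, a ratio of 1.41 (log2 0.49, -0.75 to 1.84). Both intervals include 0, so at this depth neither pair differed beyond counting error. The widths were 496 and 505 bp in the knockdown and 364 and 363 bp in the control library.

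The other CCND3 regions were modest in both libraries. The pairs that begin at 41888763, 41904187 and 41978057 in the knockdown list had 9, 5 and 6 reads there and 9, 6 and 6 reads in the control, with log2 ratios of -0.42, -0.69 and -0.42. The knockdown region from 41889068 to 41889231 had 10 reads and a fold of 7.01, and lay 78 bp from a control region. It had the highest fold of the 10 members found in the knockdown list alone, just under that list's median of 7.04. The knockdown region from 42012042 to 42012206 had 7 reads, and the control region from 41993312 to 41993443 also had 7 reads, each without a partner. Scaled to the other library, the knockdown summits from 41889068 and 42012042 correspond to 7.5 and 5.2 reads and the control summit to 9.4. The limit is 4 reads at each of them.

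**Figure D2:**
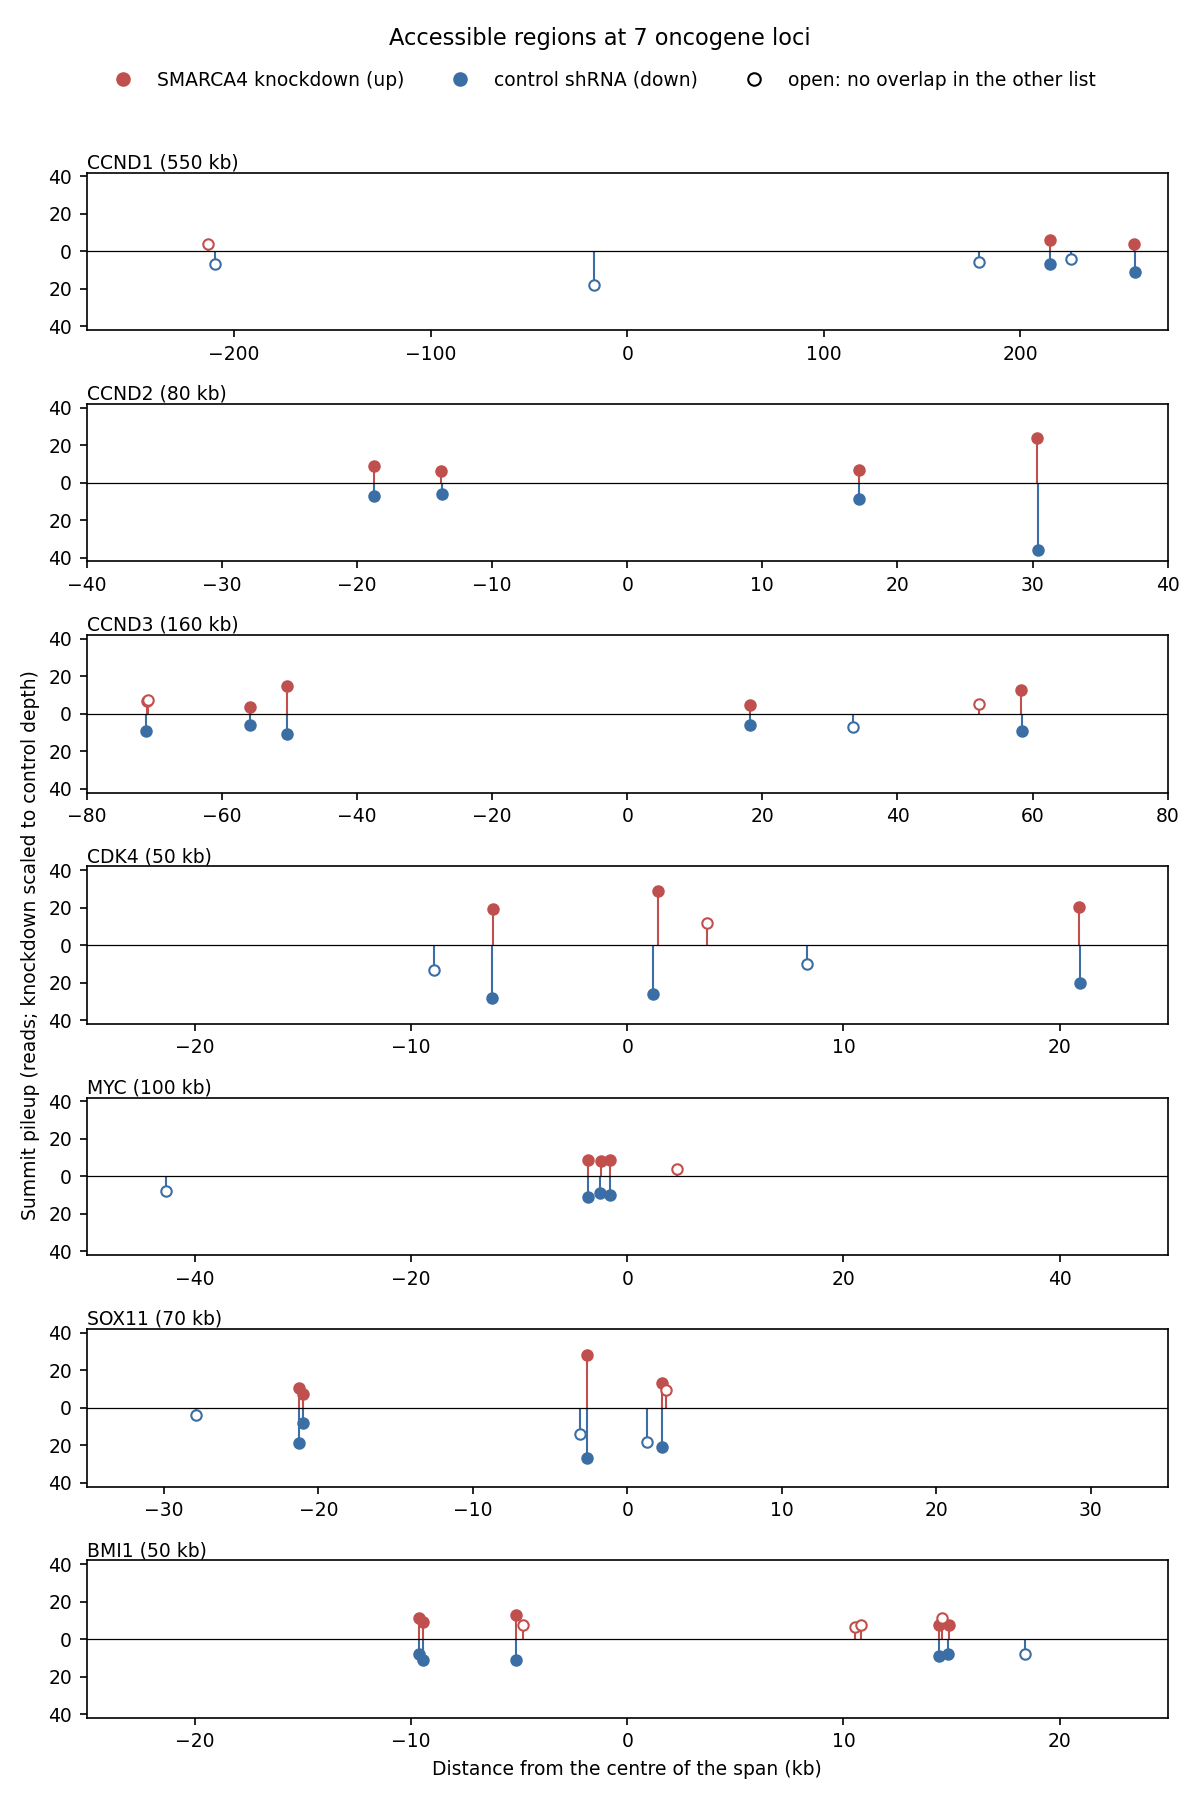
Position and summit of every member region at the 7 loci. The horizontal axes give the distance from the centre of each span in kb, and the vertical axes give the summit pileup in reads, upward for the SMARCA4 knockdown library (red, divided by the depth factor of 1.34) and downward for the control shRNA library (blue). Filled points overlap a region of the other list and open points do not, as for the CCND1 control region with 18 reads near the centre of its span.

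CDK4 had some of the tallest summits of the loci, and its 3 wide regions were shared. The summit of the central region, on chromosome 12 from 58146021 to 58146566 in the knockdown and from 58146052 to 58146548 in the control library, had 39 reads and a fold of 12.1 in the knockdown, against 26 reads and a fold of 9.79 in the control. Its depth-scaled ratio was 1.12 (log2 0.16, -0.59 to 0.94), and the summits lay 241 bp apart. The region before it, from 58138406 to 58138902 in the knockdown and from 58138415 to 58138849 in the control list, had 26 reads in the knockdown and 28 in the control (log2 -0.53, -1.36 to 0.29). The region after it, from 58165549 to 58166105 in the knockdown and from 58165536 to 58166197 in the control list, had 27 reads in the knockdown and 20 in the control (log2 0.01, -0.88 to 0.92). At each of the 3 the interval of the ratio included 0. The knockdown list alone had a narrow region from 58148622 to 58148766 with 16 reads and a fold of 5.05. At the depth of the control library this corresponds to 11.9 reads, where a summit of 8 reads can be called. The regions in the control list alone lay from 58135976 to 58136123, with 13 reads and a fold of 6.58, and from 58153291 to 58153396 with 10 reads and a fold of 6.35. At the depth of the knockdown library these correspond to 17.4 and 13.4 reads, where summits of 8 and 6 reads can be called. Of all control regions with a fold of 6.58 or more, 15.45% had no knockdown partner.

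MYC had a cluster of 3 modest regions that both libraries shared with like summits. On chromosome 8 the cluster runs from 128746320 to 128748623. In order of position the summits were 12, 11 and 12 reads in the knockdown library and 11, 9 and 10 reads in the control library. The depth-scaled log2 ratios were -0.30, -0.13 and -0.16, with the widest interval from -1.54 to 1.31, at the second region. Folds lay between 5.34 and 5.86 in the knockdown and between 5.21 and 6.19 in the control library, below the median of each list. The third region was 272 bp wide in the knockdown against 118 bp in the control library. Outside the cluster, the knockdown list alone had a region from 128754591 to 128754679 with 5 reads and a fold of 3.82, at percentile 1.6 of its list. At the depth of the control library this corresponds to 3.7 reads, under the limit of 4 there. The control list alone had a region from 128707288 to 128707464 with 8 reads and a fold of 7.02. At the depth of the knockdown library it corresponds to 10.7 reads, where a summit of 4 reads can be called. The nearest knockdown region was 38.9 kb away, and 14.03% of all control regions of at least that fold lacked a partner. The flanks of 100 kb on each side held 1 region in each list, and these overlapped.

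SOX11 had the highest local read numbers of the 7 loci. The peak caller compares each summit with the reads in the surrounding 10 kb, and this number can be recovered from the deposited values. Around the knockdown region on chromosome 2 from 5832297 to 5832621 it was 346 reads, and around the control partner from 5832341 to 5832567 it was 319 reads. These numbers are at percentile 99.0 of all knockdown regions, whose median is 64 reads, and percentile 99.6 of all control regions, whose median is 44 reads. The knockdown summit had 38 reads and a fold of 9.56 and the control summit 27 reads and a fold of 7.0, a depth-scaled ratio of 1.05 (log2 0.07, -0.68 to 0.84). Further along, the knockdown region from 5837198 to 5837338 had 330 reads per 10 kb and a summit of 18 reads, against 298 and 21 reads in the control region from 5837197 to 5837349 (log2 of the summit ratio -0.65, -1.64 to 0.33).

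Local read numbers around SOX11 were lower in the knockdown than the depth of the library gives. The knockdown library has 1.42 times the reads of the control. Scaled by this, the reads per 10 kb had a log2 ratio of -0.39 (counting interval -0.61 to -0.16) at the first pair and -0.36 (-0.59 to -0.12) at the second. The 2 windows share reads, since their centres are less than 10 kb apart. Another SOX11 pair, from 5813506 to 5813837 in the knockdown and from 5813556 to 5813907 in the control list, had 77 reads per 10 kb in the knockdown and 75 in the control (log2 -0.46, -0.94 to 0.01). Its folds were 8.90 in the knockdown and 11.7 in the control, and its summits 14 and 19 reads (log2 -0.86, -1.97 to 0.21). Next to it, the knockdown region from 5813980 to 5814086 had a summit of 10 reads and the control region from 5813990 to 5814084 one of 8 reads. Over the 27933 pairs of the genome whose local reads could be recovered in both lists, the median log2 ratio was -0.14, with an interquartile range from -0.35 to 0.06. The SOX11 values lay a little below the lower quartile of the genome, and the intervals of the second and the third include the genome median. Low values were not limited to SOX11, as the CCND3 pair that begins at 41978057 in the knockdown list had -0.50 (-1.15 to 0.14). Over the 24 member pairs with such values the median was -0.04, and 9 were above 0.

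In the SOX11 span the overlapped shares were near those of the whole lists. A partner was found for 4 of 5 knockdown regions (80.0%) and 4 of 7 control regions (57.1%), against 79.4% and 60.5% of all regions. The knockdown list alone had a region from 5837448 to 5837608 with 13 reads, 98 bp from a control region. At the depth of the control library this corresponds to 9.7 reads, where the limit is 8 reads. The control list alone had regions from 5831931 to 5832143 with 14 reads and from 5836171 to 5836343 with 18 reads, which lay 153 and 854 bp from the nearest knockdown region. At the depth of the knockdown library these correspond to 18.8 and 24.2 reads, where the limit on the same background is 12 and 13 reads. The control region from 5807050 to 5807143 had 4 reads and no partner, and corresponds to 5.4 reads in the knockdown library, where the limit is 4. The flanks of SOX11 held 0 knockdown regions and 1 control region.

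BMI1 had more regions in the knockdown than in the control list, several of them less than 1 kb apart. Its 50 kb held 9 knockdown (interval 4.1 to 17.1) and 6 control regions (2.2 to 13.1), the densest span at 18 and 12 regions per 100 kb. Between neighbouring regions, 5 gaps in the knockdown and 2 in the control list were under 1 kb. The median gap was 0.2 kb in the knockdown and 3.4 kb in the control list. Regions this close were counted separately, which raises the numbers and the density. A partner was found for 5 of the 9 knockdown regions (55.6%, interval 21.2 to 86.3%) and 5 of the 6 control regions (83.3%, 35.9 to 99.6%). Over all regions the shares were 79.4% and 60.5%, inside these intervals. All of these regions had folds below the median of their list, between 3.89 and 6.34 in the knockdown and between 4.10 and 5.31 in the control library. They lay in 10 kb windows rich in reads, with 152 to 215 reads in the knockdown and 96 to 143 reads in the control library. With the control list cut to the 41540 regions of the knockdown list, the span held 9 knockdown and 2 control regions. That setting can remove control regions only. With q-values of at most 1e-05 the span held 3 knockdown and 1 control region.

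Summits at the 5 shared BMI1 pairs did not differ beyond counting error. The pair from 22605183 to 22605435 in the knockdown and from 22605225 to 22605396 in the control list, on chromosome 10, had 15 reads in the knockdown and 8 in the control, a depth-scaled ratio of 1.40 (log2 0.48, -0.85 to 1.93). The knockdown region from 22609806 to 22609929 had 17 reads, against 11 in the control region from 22609802 to 22610016, a ratio of 1.15 (log2 0.20, -0.97 to 1.44). The pairs that begin at 22605522, 22629217 and 22629854 in the knockdown list had 12, 10 and 10 reads there and 11, 9 and 8 in the control, with log2 ratios of -0.30, -0.27 and -0.10. Depth-scaled log2 ratios of the reads per 10 kb were between -0.02 and 0.09 at all 5 pairs.

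Of the 4 BMI1 regions in the knockdown list alone, 2 lay within 136 bp of a control region and 2 lay over 3 kb from one. The strongest, from 22629519 to 22629616, had 15 reads and a fold of 6.34, the highest of the 9 knockdown regions in the span, and lay 79 bp from a control region. The region from 22610153 to 22610336 had 10 reads and lay 136 bp from one. A close pair from 22625528 to 22625616 and from 22625731 to 22625822 had 9 and 10 reads, with the nearest control region 3.6 and 3.4 kb away. Scaled to the depth of the control library these 4 summits correspond to 11.2, 7.5, 6.7 and 7.5 reads, where limits are 6, 7, 6 and 6 reads. The control list alone had a region from 22633318 to 22633443 with 8 reads, which correspond to 10.7 in the knockdown library, where the limit is 7.

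**Figure D3:**
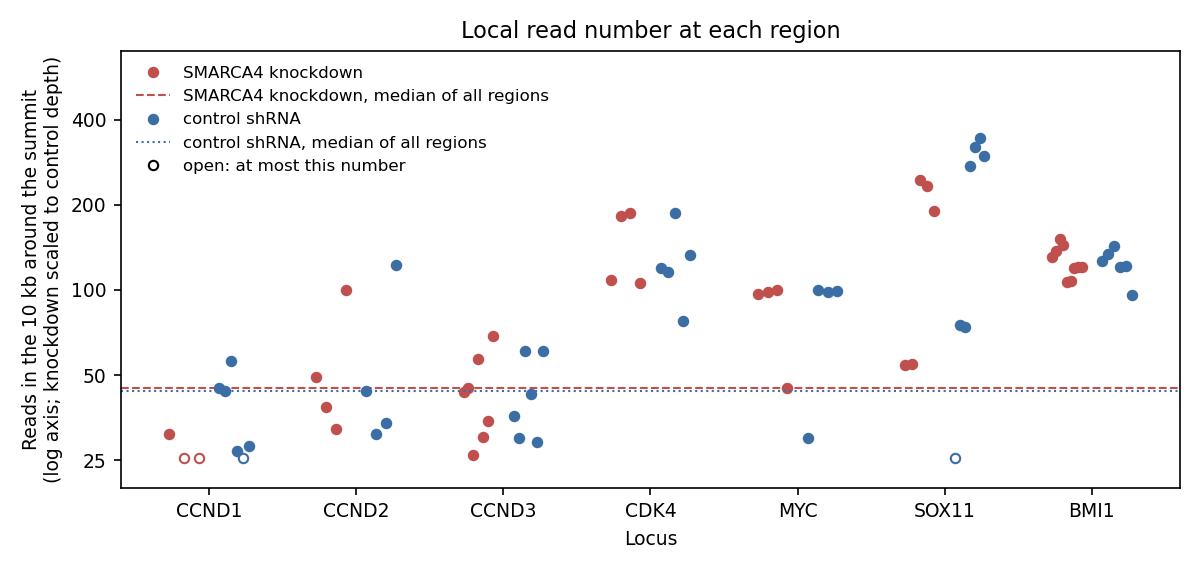
Reads in the 10 kb around the summit of each member region (vertical log axis), by locus, for the SMARCA4 knockdown (left, red, divided by the depth factor of 1.42) and the control shRNA library (right, blue). Lines give the medians over all regions of a list (64 reads in the knockdown before scaling and 44 in the control), and open points are upper limits. The CDK4 and BMI1 regions lie above the medians, and the 4 highest control points belong to SOX11.

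Across the loci, the ratio of knockdown to control summits at shared regions was about that of the genome in general. Over the 26 member pairs the median depth-scaled log2 ratio of the summits was -0.20 (interquartile range -0.42 to 0.05), and over all 33358 pairs it was -0.25 (-0.62 to 0.08). The knockdown summit was higher than depth gives in 8 and lower in 18 of the 26 member pairs. It was higher in 30.8% of member pairs and in 29.6% of all pairs. Relative to the genome median the member median was 0.05, so its direction depends on the scaling. No member pair was more than 2-fold higher in the knockdown, where 1.36% of all pairs were, and 1 of 26 was more than 2-fold lower, where 11.0% of all pairs were. No counting interval of a summit ratio lay wholly on 1 side of 0. By locus the median ratio was -0.90 over 2 pairs at CCND1, -0.22 over 4 at CCND2, -0.42 over 5 at CCND3, 0.01 over 3 at CDK4, -0.16 over 3 at MYC, -0.37 over 4 at SOX11 and -0.10 over 5 at BMI1. These medians lie within the counting error of single pairs, and no order of the loci is read from them.

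**Figure D4:**
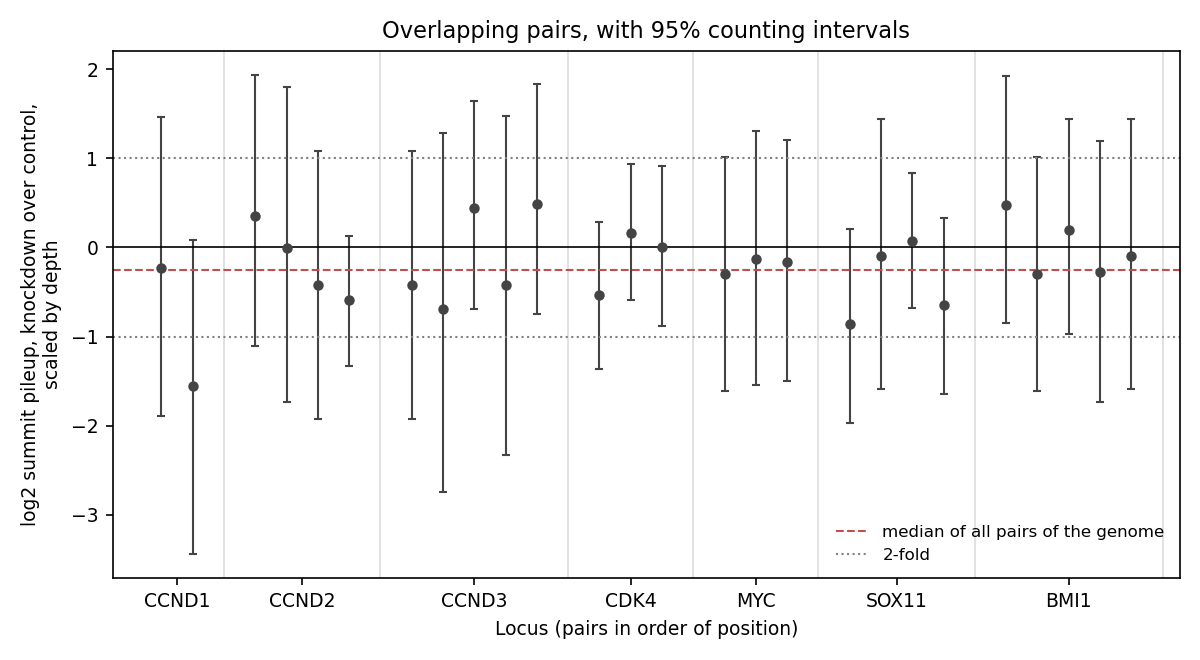
Depth-scaled log2 ratio of the summit pileup, SMARCA4 knockdown over control shRNA (vertical axis), for the 26 overlapping pairs of member regions, grouped by locus (horizontal axis). Points are single pairs, bars are exact 95% counting intervals, the dashed line is the genome median of -0.25 and dotted lines mark 2-fold. The second CCND1 pair is the one point below the lower dotted line, and every bar crosses 0.

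More members reached the list median in local reads and in summit height than in fold. In the knockdown list 27 of 36 members had at least the median number of reads per 10 kb of that list, and 12 were at or above percentile 90. In the control list these numbers were 27 and 14 of 38. At or above the median summit were 25 of 36 knockdown and 28 of 38 control members. Summits are whole reads, so members tied at the median count as reaching it. The share of all regions that reach it in the same way is not given here, so these counts do not show that members were taller. At or above the median fold were 10 knockdown and 13 control members, and at or above percentile 90 by fold were 1 knockdown and 3 control members. The fold divides by the local reads, so a high local number lowers the fold of the same summit. Copy number was not measured here and its part in the local read numbers was not tested.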

How the data were processed

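ATAC-seq was measured in 2 libraries of Z-138 cells, 1 with SMARCA4 knocked down and 1 with a control shRNA, grouped by their genotype label. Per the submitters' processing notes, bcl2fastq 2.17.1.14, BWA, MACS2 and the build hg19 were used; no source used here gives parameters, read shifting or blacklists. Each deposited list holds, for every peak, a fold (the ratio of summit to expected background), −log10 p and q values of the summit, and a score derived from the q-value. Peak names in both lists carry the term DMSO.

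Only the autosomes and chromosome X were analysed. Summit pileup and background were solved from the fold and the p-value with a Poisson tail (Python 3.11.15, scipy 1.17.1); the deposited −log10 p-values came back within 4.2e-05, and on simulated peaks at least 99.98% of pileups were recovered. Backgrounds above the lowest were whole reads per 10 kb within 0.02. The lowest backgrounds (0.322 and 0.24 reads) and shortest peaks (89 and 94 bp) give 9.76 M and 6.89 M reads in the knockdown and the control library for an assumed genome of 2.7 Gb, and expected ratios of 1.42 for reads and 1.34 for summits. A pair is a control region and the knockdown region that overlaps it most. Ratio intervals are exact conditional binomial, shares exact binomial (Clopper-Pearson) and numbers exact Poisson, all at 95%. A summit is a maximum over positions, and amplified reads are not independent molecules, so intervals cover counting error only. The named regions are the 3 highest folds of each span, regions in 1 list at or above the list's median fold and pairs past 2-fold; other regions were added to account for every member. Members, lists and spans were chosen with earlier results of these data known. The labelled cell type could not be checked against marker RNA in peak lists. Alternatives are described in the closing section.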

Additional observations from a re-analysis of the deposited data

How the results depend on the processing

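No paired analysis was possible because each group has 1 library, and leaving out a replicate was not possible for the same reason. Of the numbers of regions in the loci, 36 in the knockdown and 38 in the control library, both dropped by over 1.5 times with q-values of at most 1e-05, to 23 and 22. The whole lists fell by smaller factors, from 41540 to 30433 knockdown and from 55124 to 35894 control regions. At that limit CCND3 fell to 4 knockdown regions instead of 7 and SOX11 to 4 control regions instead of 7, while the smaller numbers at CCND1, CCND2 and BMI1 stand beside their results. Over all loci the numbers were 33 and 34 at 0.001 and 36 and 30 with lists of equal length. The overlapped share stayed within its counting interval under every alternative run, between 58.3% and 83.3% for knockdown and between 55.3% and 75% for control regions. The values without the CCND1 span, chosen after seeing the data, were 72.7% and 75%. The median log2 summit ratio, -0.20, changed sign to 0.05 when scaled to a genome median of 0 and to 0.03 as a ratio of the deposited folds; beyond the construction of these scalings the cause was not tested. It was -0.25 for summits within 50 bp, -0.13 with reciprocal overlap of 50%, and, added after seeing the data, -0.16 scaled to local reads and -0.15 without CCND1. The CCND1 pair past 2-fold had -1.31 and -1.07 under the first pair of scalings. Most member summits hold 5 to 20 reads, which limits every ratio.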
